A study of Mus musculus with 2 samples.

Results

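A small group of CD45+ cells of the injured mouse thalamus was set apart by transcripts of Gdf15 and Hilpda. A cell was counted in this group when it held 3 or more unique molecular identifiers (UMIs, 1 per captured transcript) of Gdf15 and Hilpda together. It also had to hold 2 or fewer UMIs of the interferon-stimulated genes Rsad2, Ifit1, Ifit3 and Slfn4, 1 or fewer of the complement genes C1qa, C1qb and C1qc, and 0 of Cd3d, Cd3e, Cd3g and a sum of macrophage genes that includes F13a1. Cells with 200 to 7500 detected genes and at most 5% of UMIs in mitochondrial genes were kept for analysis. The rule selected 202 of the 26145 kept cells, which are called Gdf15/Hilpda cells below.

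Both libraries came from C57B6/J mice (C57BL/6J in the methods) with cortical ablation injury (CAI), in which an antibody (Ab) was given through a cannula in the thalamus. Cells were taken on day 21 after CAI, from mice whose age is listed as 12 weeks. One library was made after control Ab (normal rat IgG) and the other after anti-CD9 Ab (clone KMC8), each from sorted live CD45+ cells of the thalamus. The methods describe pooling of cells from several mice before the sort for thalamic samples, and the study worked mainly with female mice. With 1 library per Ab, the Ab, the pool of mice and the library cannot be told apart, so that no test was made. All intervals below are 95% intervals for counting error alone.

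GDF15 is a secreted stress cytokine of the TGF-β family whose gene is induced when cells activate the integrated stress response or p53. HILPDA is a small lipid droplet protein, induced by hypoxia and by fatty acids, that inhibits the triglyceride lipase ATGL. Neutrophils are short-lived granulocytes that enter injured tissue from blood. In hypoxic or inflamed tissue they can run a programme of glycolysis, lipid storage, iron handling and chemokine production while losing receptors that serve recruitment from blood.

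The control Ab library held 38042608 UMIs in 12245 cell barcodes (11690 kept) and the anti-CD9 Ab library held 40825201 UMIs in 15173 barcodes (14455 kept). None of the 11690 kept control Ab cells met the rule, which allows a share of up to 0.0257% at a floor of 3 cells (exact 95% upper limit 0.0316%). In the anti-CD9 Ab library, all 202 cells were found, 1.40% of the kept cells (1.21 to 1.60%). When only cells within the 4 upper limits were counted, 202 of 3416 anti-CD9 Ab cells (5.91%, 5.15 to 6.76%) and 0 of 1038 control Ab cells (up to 0.289% at the floor of 3 cells, exact upper limit 0.355%) met the rule. The libraries shared 54 barcodes, and none of the 202 cells had a barcode that was also present in the control Ab library.

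Transcripts of the 2 genes were also found outside the selected cells. At least 3 UMIs of Gdf15 and Hilpda were held by 485 anti-CD9 Ab cells and 5 control Ab cells. Of the 485, 283 were turned away by a limit, 142 by interferon-stimulated genes, 132 by C1q, 87 by the macrophage gene sum and 42 by Cd3, with some cells over several limits. Any UMI of Gdf15 was seen in 2.48% of kept anti-CD9 Ab cells and 0.334% of control Ab cells, and any UMI of Hilpda in 10.4% and 3.93%. Among cells gated only on markers, those with S100a8 or S100a9 (5 or more UMIs) and Cxcr2 or Csf3r (1 or more) had the highest levels with anti-CD9 Ab. In these 1208 cells, Gdf15 was at 72.8 CPM (UMIs of the gene per 1000000 UMIs of the cells, 60 to 87.5) and Hilpda at 188 CPM (167 to 211). Only 18 such cells were present with control Ab, and they held 0 UMIs of both genes, with an exact 95% Poisson upper limit of 131 CPM that lies above the Gdf15 level and below the Hilpda level of the anti-CD9 Ab cells. In cells with 3 or more UMIs of the macrophage gene sum, Hilpda was at 9.53 CPM with control Ab (5.21 to 16) and 55.6 CPM with anti-CD9 Ab (50.7 to 60.8). In Cd3 cells, which are T cells and serve here as a rough guide to free RNA, Hilpda was at 18.3 CPM with control Ab and 28.4 CPM with anti-CD9 Ab, and Gdf15 at 1.62 and 5.06 CPM. Free RNA was not separated there from transcripts of the T cells themselves or from doublets. With control Ab the macrophage-gated cells were deeper than the T cells (median 7231 against 1748 UMIs), and 9.33% of them held a Hilpda UMI against 4.52% of T cells, so that level and share stood in opposite order.

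**Figure D1:**
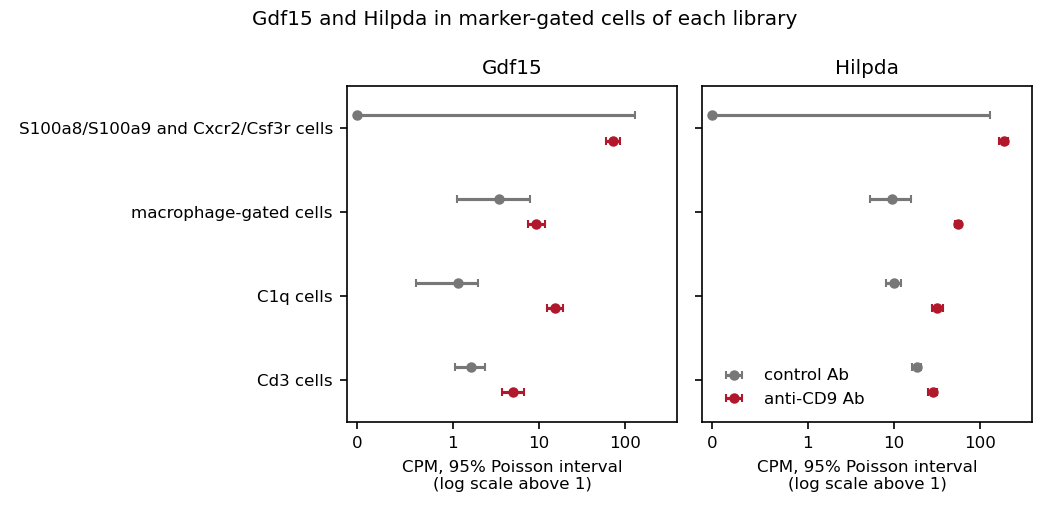
Levels of Gdf15 (left) and Hilpda (right) in CPM, on an axis that is logarithmic above 1, in cells gated on the named markers; points are summed UMIs of 1 library and bars are 95% Poisson intervals. The S100a8/S100a9 and Cxcr2/Csf3r gate reached 72.8 and 188 CPM with anti-CD9 Ab, and its 18 control Ab cells held 0 UMIs (upper limit of the interval 131 CPM).

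Within the 202 cells, which were selected on these counts, the sum of Gdf15 and Hilpda ran from 3 to 53 UMIs with a median of 5. Hilpda alone was detected in 115 cells, Gdf15 alone in 24 and both in 63. Exactly 3 UMIs were held by 58 cells, 4 by 38, 5 to 9 by 71 and 10 or more by 35. Just outside the rule, 109 anti-CD9 Ab cells within all upper limits held 2 UMIs. Gadd45b was at 5674 CPM in cells with 3 UMIs and 4209 CPM in those with 2, Mreg at 864 and 628 CPM, and Cstb at 3678 and 3168 CPM. These levels were thus somewhat lower just outside the rule, with counting intervals that overlap for Mreg and Cstb and do not for Gadd45b. All 504 UMIs of the mast cell protease genes Mcpt1, Mcpt2, Cpa3 and Cma1 among the 109 cells lay in 1 cell. The selected cells were small libraries, with a median of 1076 UMIs (548 to 10410) and 549 genes, close to the 1070 UMIs of the Cxcr2 neutrophils described below. Their median share of mitochondrial UMIs was 0.331%.

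**Figure D2:**
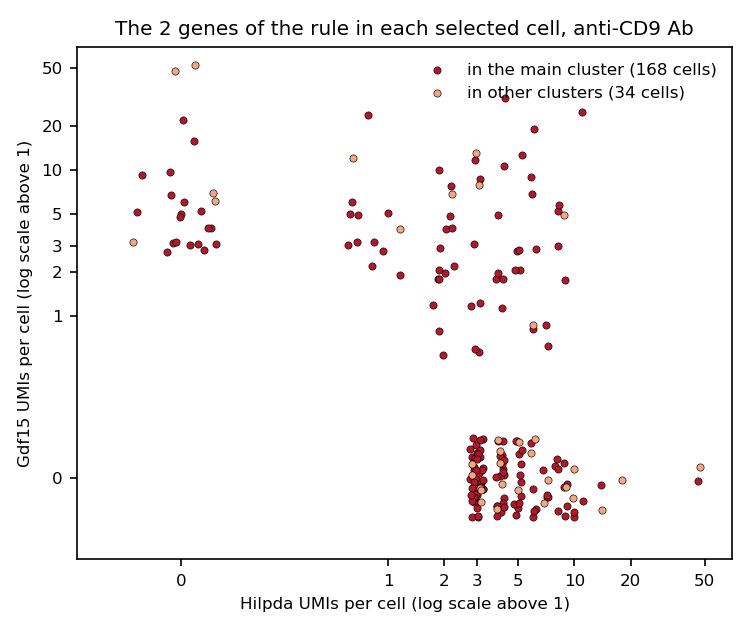
UMIs of Hilpda (horizontal) and Gdf15 (vertical) in each of the 202 Gdf15/Hilpda cells, with a small random shift so that points do not cover each other, on axes that are logarithmic above 1. Most cells lie along the Hilpda axis with no Gdf15 UMI (115 cells), and the few highest reach 53 UMIs.

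The promoters of the 2 genes are shown because they chose the cells. In RefSeq windows of 250 bases before to 50 after each transcript start (GRCm38.p6), 4 of the 5 marker genes (Gdf15, Hilpda, Gadd45b, Cstb and Mreg) had an entry, with 7 windows in all. ACGTG, 1 form of the core of the hypoxia response element bound by HIF, was searched on both strands. It was present in 1 of 2 windows of Hilpda, 1 of 2 of Gdf15 and the window of Gadd45b, against 19.6% of all 32851 windows. The form GCGTG was not searched and is not marked below. The C/EBP-ATF composite element (TGATGNAAT, in 0.965% of all windows) and the cAMP response element (TGACGTCA, in 1.79%) were in none of the 7 windows. The 250 bases before the start are given 5′ to 3′ on the gene's own strand, Hilpda from chr6:29272376-29272625 (plus strand) and Gdf15 from chr8:70632096-70632345 (minus strand), with the ACGTG matches in capitals. In Gdf15 the letters CACGTG hold ACGTG on both strands.
Hilpda: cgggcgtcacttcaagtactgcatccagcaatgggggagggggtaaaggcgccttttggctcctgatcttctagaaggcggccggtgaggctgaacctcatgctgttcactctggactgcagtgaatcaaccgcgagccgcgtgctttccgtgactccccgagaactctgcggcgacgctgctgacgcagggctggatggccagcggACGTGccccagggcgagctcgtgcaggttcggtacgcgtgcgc
Gdf15: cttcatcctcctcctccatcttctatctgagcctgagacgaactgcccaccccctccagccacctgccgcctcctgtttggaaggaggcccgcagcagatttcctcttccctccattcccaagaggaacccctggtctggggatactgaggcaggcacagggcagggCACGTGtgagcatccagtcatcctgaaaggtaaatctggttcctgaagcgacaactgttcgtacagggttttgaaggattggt
In Hilpda the match starts 43 bases before the transcript start. The match is a description of the letters, and binding was not measured.

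Lineage genes were then used to ask what kind of cell had been selected. All 12 genes of the mature neutrophil list were detected in the Gdf15/Hilpda cells, at a summed level of 11391 CPM (10987 to 11807). The same list stood at 61124 CPM in Cxcr2 neutrophils, 941 CPM in T cells and 1158 CPM in gated macrophages of the same library, so that the Gdf15/Hilpda cells lay between the neutrophils and the other cells. Cxcr2 neutrophils here are 523 anti-CD9 Ab cells with 2 or more UMIs of Cxcr2 and Csf3r, 5 or more of S100a8 and S100a9, the same upper limits and no UMI of Gdf15 or Hilpda. They were chosen for high values of those 4 genes, so that lower values of these genes in the selected cells follow in part from the choice. Without S100a8 and S100a9, the most abundant genes of the list in Cxcr2 neutrophils, it was at 4373 CPM in the Gdf15/Hilpda cells, 14507 CPM in Cxcr2 neutrophils and 327 CPM in T cells. At least 3 UMIs of these 10 genes were found in 67.8% of the Gdf15/Hilpda cells and 7.74% of T cells, although T cells were deeper (median 2522 UMIs). Clec4d, a C-type lectin of neutrophils and macrophages, was the most abundant of the 10 at 1971 CPM.

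Other granulocytes were near or at 0. The 10 genes of the basophil and mast cell list (among them Cpa3, Mcpt8 and Kit) held 0 UMIs, and the eosinophil list held 3 UMIs over 8 genes, with Epx, Ccr3, Il5ra, Ear1 and Ear2 at 0. Of the immature neutrophil granule genes, Mpo, Elane, Prtn3, Ctsg, Ngp, Cebpe, Fcnb and Cd177 were at 0, and 78.3% of the UMIs of Chil3, the most abundant, came from 1 cell. The macrophage list was at 2820 CPM, below its level in T cells (3348 CPM) and in gated macrophages (43346 CPM), with Mrc1 and Pf4 at 0 and Lyz2 the most abundant at 1138 CPM. Monocyte genes were at 571 CPM (T cells, 1409 CPM) and microglia genes at 384 CPM (T cells, 1375 CPM). The limits on C1q, the macrophage gene sum and Cd3 removed macrophages, microglia and T cells by rule, so that the low levels of those genes are not a finding. The label of granulocyte-like cells therefore rested on the neutrophil genes, which were below their level in Cxcr2 neutrophils. Of the 202 cells, 60 held a UMI of Cxcr2 or Csf3r, 70 held 5 or more of S100a8 and S100a9, and 27 met both. Plasma cell genes reached 8038 CPM, most of it Igkc (6466 CPM), but 87.9% of all immunoglobulin UMIs of the 202 cells lay in 1 cell. Dendritic cell genes were at 2268 CPM, above their level in T cells (1541 CPM) and Cxcr2 neutrophils (873 CPM) and below that in gated macrophages (10528 CPM). Cd74 was the most abundant, with 33.1% of its UMIs in 1 cell, and Flt3, Zbtb46, Xcr1, Clec9a and Cd209a were at 0. Compared with Cxcr2 neutrophils, 3 of 3 genes of this list were 2-fold or more higher, against 13.1% of all genes compared. These were Cd74, H2-Aa and H2-Ab1, and 1 cell held 38.8% of the H2-Aa UMIs and 1 cell 47.8% of the H2-Ab1 UMIs. In the 168 selected cells of the main cluster described below, Cd74 was at 213 CPM, lower than in Cxcr2 neutrophils (499 CPM). The count of 3 is thus not a property of most of the cells. The remaining lists were low, with NK cell genes at 133 CPM (92.9% of Gzma, the most abundant, in 1 cell), B cell genes at 175 CPM, T cell genes at 53.3 CPM, oligodendrocyte genes at 49.5 CPM, endothelial genes at 38.1 CPM, erythrocyte genes at 26.6 CPM, astrocyte genes at 15.2 CPM and neuron genes at 7.61 CPM.

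**Figure D3:**
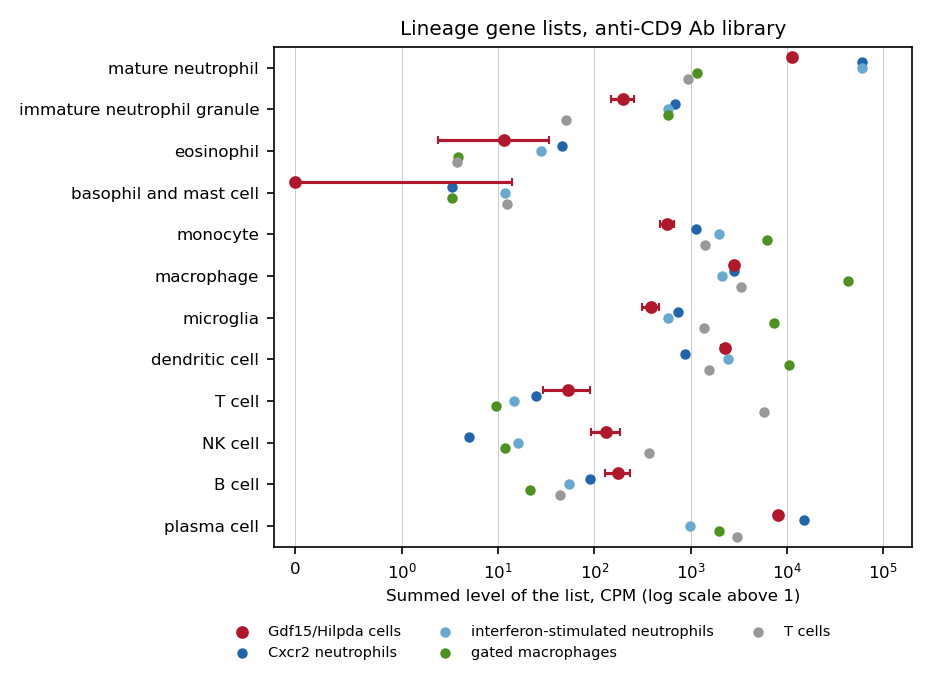
Summed level of each lineage list in CPM, on an axis that is logarithmic above 1, in 5 sets of cells of the anti-CD9 Ab library; bars are 95% Poisson intervals of the Gdf15/Hilpda cells. In the top row the Gdf15/Hilpda cells (11391 CPM) lie between both neutrophil sets and the T cells and macrophages, and the basophil and mast cell list is at 0.

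Clusters of all kept cells, built without the rule genes and the 5 marker genes, placed 168 of the 202 cells (83.2%) in 1 of 28 clusters. This cluster held 1560 cells (14 with control Ab), so that the selected cells were 10.8% of it, and it was led by Gadd45b, Lcn2, Mreg, Gdf15, Hilpda, Ccrl2, Il1rn, Il36g, Slc7a11 and Card19. A cluster almost wholly of 1 library may reflect that library. A further 22 cells lay in a cluster of 995 anti-CD9 Ab cells led by Cxcl2, Ccl4, Cxcl10 and Rsad2, and 2 in the cluster that held 391 of the Cxcr2 neutrophils. The other 10 cells were spread over 6 clusters. The main cluster itself held 110 of the 523 Cxcr2 neutrophils and 50 of the 458 interferon-stimulated neutrophils (the latter defined below). At a coarser resolution of 0.4, the cluster with 95.5% of the selected cells held 513 and 443 of them. Predicted doublets made up 2 of the 168 cells (1.19%) and 11 of the 34 elsewhere (32.4%).

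The main cluster also held 979 anti-CD9 Ab cells with no UMI of Gdf15 or Hilpda. Compared with these, the 168 selected cells of that cluster had Gadd45b at 8705 against 2817 CPM, Mreg at 1151 against 381 CPM and Cstb at 4229 against 2147 CPM. S100a8 was at 2746 against 5819 CPM and Csf3r at 371 against 766 CPM. The mature neutrophil list was at 12473 against 20306 CPM. Gbe1 was at 1140 against 449 CPM, Gpnmb at 466 against 116 CPM and Cxcl2 at 14377 against 6318 CPM. Tnf was at 393 against 478 CPM, with intervals that overlap. For all 202 cells against the 979, 201 of 3781 genes compared were 2-fold or more higher and 597 lower. The 979 cells were not held to the upper limits, and in the 535 of them that met the limits Gadd45b was at 2597 CPM, Mreg at 384 CPM, Cstb at 2057 CPM and the mature neutrophil list at 22436 CPM. The selected cells of the cluster thus had more of these marker genes and less of the neutrophil list than the other cells, within the limits or not. The 34 cells outside the main cluster were different in content. They had Il1b at 4546 CPM (792 CPM inside), and less Gbe1 (154 against 1140 CPM), Pnpla7 (47.2 against 803 CPM) and Tnfrsf23 (23.6 against 286 CPM). Igkc was at 18669 CPM (663 CPM inside), but 94.6% of its UMIs lay in 1 cell, and without that cell it was at 1100 CPM. Cd74, a gene of antigen-presenting cells, was at 3047 CPM (213 CPM inside), with 38% in 1 cell, and at 1583 CPM in the 23 cells that were not predicted doublets, with 81.7% in 1 cell. The part of the 34 cells in the list results below was measured by leaving them out.

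The genes with the most UMIs in the Gdf15/Hilpda cells were Fth1 and Ftl1, the 2 ferritin chains that store iron, and Cxcl2, a chemokine that attracts neutrophils. Fth1 was at 107377 CPM (106128 to 108637), against 34952 CPM in Cxcr2 neutrophils and 7141 CPM in T cells. It was found in all 202 cells, with 3.44% of its UMIs in the highest cell. Cxcl2 was at 20975 CPM against 4939 CPM in Cxcr2 neutrophils, and Ftl1 at 18615 against 5174 CPM. Next came Malat1, Ccl3, Ccl4, Gadd45b, Tmsb4x, Igkc, Tpt1, Lcn2, Nfkbia, Slpi, S100a9, Srgn, Atp6v0c, Zeb2, Fcer1g, Hilpda and Igha. Lcn2 (5914 against 4013 CPM) and Slpi (4932 against 2935 CPM), a siderophore-binding protein and a protease inhibitor of neutrophils, were within 2-fold of Cxcr2 neutrophils. Igha and Igkc came from 1 cell for 98.1% and 88.1% of their UMIs, and are not a property of the group.

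The marker genes outside the rule were found in most cells. After each cell was thinned to 1000 UMIs, which left 115 Gdf15/Hilpda cells and 313 Cxcr2 neutrophils, Gadd45b was detected in 90.4% of the Gdf15/Hilpda cells, 33.2% of Cxcr2 neutrophils and 7.15% of T cells. Cstb, a cathepsin inhibitor, was detected in 85.2%, 33.5% and 14.2%, and Mreg, a protein of lysosome-related organelles, in 54.8%, 5.43% and 0.676%. In the 369 thinned interferon-stimulated neutrophils, the shares were 51.8% for Gadd45b, 30.1% for Cstb and 9.49% for Mreg. The shares of cells with a UMI were also compared for other neutrophil genes. The chemokine receptor Cxcr2 was detected in 3.48% of the Gdf15/Hilpda cells and 60.7% of Cxcr2 neutrophils, and the decoy receptor Il1r2 in 8.70% and 61.0%, whereas Lcn2 was detected in 86.1% and 67.4% and the C-type lectin gene Clec4e in 62.6% and 59.1%. Without thinning, the shares in the 202 cells were 92.6% for Gadd45b, 91.6% for Cstb and 57.4% for Mreg. The set of Cxcr2 neutrophils was chosen on Cxcr2, so that the difference in Cxcr2 follows from the choice.

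Levels of single genes were compared with Cxcr2 neutrophils of the same library, for 2755 genes with 50 or more UMIs over both sets. Because the cells were selected on these libraries, the ratios are a description. Of the 523 Cxcr2 neutrophils, 391 lay in a cluster other than the main cluster of the selected cells. The ratios thus also hold differences that main-cluster cells without the rule genes share. In the 979 such cells Gbe1 was at 449 CPM and Gpnmb at 116 CPM, against 57.9 and 8.27 CPM in Cxcr2 neutrophils. The median log2 ratio was −0.25. Of all genes compared, 13.1% were 2-fold or more higher in the Gdf15/Hilpda cells and 25.6% were 2-fold or more lower, which is the background for the counts below. The background depends on the filter: over the 13809 genes with 1 or more UMI, with 0.5 added to each count, 24.1% were higher and 22.1% lower. Gdf15 and Hilpda, which chose the cells of both sets, are not in the ranking that follows. Among the other genes with 200 or more UMIs, the highest were Mreg (959 against 44.6 CPM, log2 ratio 4.43, 3.85 to 5.0), Gbe1, the glycogen branching enzyme (822 against 57.9 CPM, 3.83), and Gadd45g, a stress-induced relative of Gadd45b (681 against 52.9 CPM, 3.69). They were followed by the co-regulator Ifrd1 (3.42), coagulation factor gene F10 (750 against 71.1 CPM), Gadd45b itself (3.34), Dock10 (3.22), Ccl3 (3.12), the copper transporter Slc31a2 (2.78), Malt1 (2.65), the glycolytic enzyme Tpi1 (2.65) and Fnip2 (2.61). All 12 were in at least 28.7% of the 202 cells.

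The lowest gene was Lrg1, a secreted glycoprotein of neutrophil granules, with 2 UMIs in the Gdf15/Hilpda cells and 627 in Cxcr2 neutrophils (7.61 against 1037 CPM, −7.09, −9.09 to −5.09). Pglyrp1, an antibacterial granule protein (15.2 against 632 CPM, −5.37), and St3gal4, a sialyltransferase that helps to make selectin ligands (19.0 against 465 CPM, −4.61), were next. The others were Fgl2 (−4.46), Klhl2 (−4.44), Gm5150 (−4.30), the V-ATPase subunit Atp6v0a1 (−3.91), Atrnl1 (−3.74), the metalloreductase Steap4 (−3.70), Il1r2 (−3.68), Ogfrl1 (−3.60) and the transcription factor Cebpd (−3.56). Cxcr2, left out of this ranking because it chose the comparison cells, was at 45.7 against 1187 CPM.

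**Figure D4:**
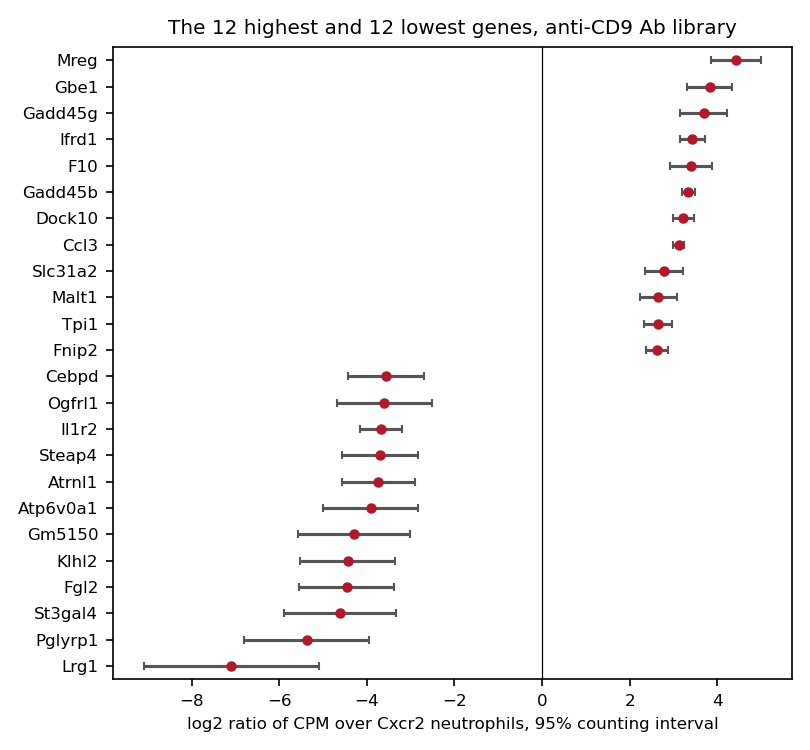
log2 ratio of CPM in Gdf15/Hilpda cells over Cxcr2 neutrophils of the anti-CD9 Ab library for the 12 highest and 12 lowest genes with 200 or more UMIs, without Gdf15 and Hilpda. Bars are 95% counting intervals. The ratios run from 4.43 (Mreg) to −7.09 (Lrg1), and no interval includes 0.

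Stress genes were taken by pathway. In the integrated stress response list, 5 of 10 genes compared were 2-fold or more higher and 0 lower (median 1.05, or 0.23 when all genes of the list with 1 UMI or more were counted with 0.5 added). The summed level of the list did not follow the median, at 6501 against 6465 CPM, with Cebpb, its most abundant gene, at 2809 against 4213 CPM. The transcription factors Atf3 (327 against 71.1 CPM, 2.20), Ddit3 (278 against 87.6 CPM, 1.66) and Atf4 (282 against 107 CPM, 1.39) and the phosphatase subunit Ppp1r15a (419 against 119 CPM, 1.81) were among the 5. The fifth was Slc3a2, a subunit of amino acid transporters (388 against 162 CPM, 1.26). Asns and Trib3 held 1 UMI each and Chac1 and Mthfd2 held 0, too few for a comparison. Slc7a11, the cystine transporter, was at 1389 against 1202 CPM. Without predicted doublets the median was 1.54, and with at least 200 UMIs a gene, 4 genes were left with a median of 0.53. Of the p53 targets, 4 of 8 were higher and 2 lower (median 0.80, or −0.15 when all targets with 1 UMI or more were counted with 0.5 added). Mdm2, the p53 inhibitor (651 against 112 CPM, 2.53), Plk2 (2.13) and the pore-forming protein gene Bax (1.69) were the highest, and Plk3 (−2.56) and Btg2 (−2.01) the lowest. One cell held 16.4% of the Mdm2 UMIs.

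Hypoxia and glycolysis genes were higher as a group, with 13 of 25 genes 2-fold or more higher and 3 lower (median 1.01). The collagen prolyl hydroxylase subunit P4ha1 (563 against 92.6 CPM, 2.60), the endoplasmic oxidase Ero1a (883 against 155 CPM, 2.51) and lactate dehydrogenase Ldha (1085 against 258 CPM, 2.07) were the highest of the listed genes compared, a list that does not hold Tpi1. Gapdh had the highest level (1519 against 680 CPM, 1.16). The peptide hormone gene Adm was detected only at 64.7 CPM, in 8 cells, but at 0 UMIs in Cxcr2 neutrophils, at least 13-fold higher against a floor of 3 UMIs over that set (4.96 CPM). That floor lies below the exact 95% upper limit for 0 UMIs in Cxcr2 neutrophils, 6.10 CPM, and folds against it leave out counting error. Pfkfb4 (−3.32), the glucose transporter Slc2a3 (−1.49) and the lactate transporter Slc16a3 (−1.14) were lower, and Hif1a itself was at 221 against 281 CPM. Of the lipid droplet and lipid handling genes, only 3 of 13 were higher and 1 lower (median 0.00). These were the neutral cholesterol ester hydrolase Nceh1 (324 against 26.5 CPM, 3.61), the cholesterol esterifying enzyme Soat1 (1.68) and the droplet coat protein Plin2 (784 against 289 CPM, 1.44), while the triglyceride synthase Dgat1 was lower (−1.91). G0s2, which like Hilpda encodes an inhibitor of ATGL, had the highest level of the list in the cells and was lower than in Cxcr2 neutrophils (1153 against 2227 CPM, −0.95).

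Oxidative stress and iron genes were higher in 8 of 14 and lower in 1 (median 1.29). Their summed level was 132949 against 45397 CPM, most of it Fth1 (1.62). The heme oxygenase Hmox1 (708 against 170 CPM, 2.06), the autophagy receptor Sqstm1 (586 against 144 CPM, 2.03) and Ftl1 (1.85) had the largest ratios, and glutathione reductase Gsr was lower (−1.24). Among the stress and function lists, lysosome and cathepsin genes had the largest share of higher genes, with 14 of 21 higher and 0 lower (median 1.56, summed level 14763 against 5365 CPM). Mreg and Cstb, marker genes of these same cells, count among the 14, so that this share rests in part on the choice of markers. The others included Gpnmb, a membrane glycoprotein of lysosome-rich cells (502 against 8.27 CPM, 5.93), and the cholesterol exporter Npc1 (263 against 29.8 CPM, 3.14). Gpnmb was in 26 of the 202 cells, with 18.2% of its UMIs in 1 of them. The V-ATPase subunit gene Atp6v0d2 was at 194 CPM and held 0 UMIs in Cxcr2 neutrophils, at least 39.1-fold higher against the same floor of 3 UMIs, counting error left out. Ctss was at 556 against 711 CPM (−0.36).

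Genes of chemokines and cytokines were higher in 9 of 15 and lower in 3 (median 1.85). Ccl3 (9309 against 1073 CPM), Ccl2 (2.75), Il1a (601 against 101 CPM, 2.58), Tnf (1069 against 246 CPM, 2.12), Cxcl2 (2.09), Ccl4 (8110 against 2002 CPM, 2.02) and the receptor antagonist Il1rn (2554 against 706 CPM, 1.85) were among the 9. Ccl2 was found in only 11 of the 202 cells, with 23.7% of its 38 UMIs in 1 cell, and Tnf in 49 cells. Osm (−2.38), Ccl6 (−2.34) and Il1b (2002 against 8320 CPM, −2.06) were lower. Il1a was lower than in interferon-stimulated neutrophils (601 against 986 CPM), and it was at 264 CPM in the main cluster and 1311 CPM in the 34 other cells. This list depended on which cells were counted: in the 168 cells of the main cluster the median was 0.78, with 6 of 13 genes higher and 4 lower. There Tnf was at 393 CPM (2492 CPM in the 34 other cells), Cxcl2 at 14377 CPM (34846 CPM) and Ccl3 at 7088 CPM (13981 CPM). NF-kB feedback genes were higher in 6 of 19, the marker gene Gadd45b among them, and lower in 1 (median 0.47). Traf1 (3.09), Sod2 (1.95) and Nfkbia (5705 against 2348 CPM, 1.28) were also higher, and Zfp36 was lower (−1.50). In the main cluster 4 of 18 were higher and 4 lower (median 0.12).

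Surface receptors of neutrophils were lower in 9 of 16 and higher in 1 (median −1.06). Il1r2 (137 against 1761 CPM), the C5a receptor C5ar1 (−1.84), the integrin Itgam (−1.74) and Cxcr4 (−1.62) were lower. The leukotriene B4 receptor gene Ltb4r1 held 0 UMIs, at least 7.96-fold lower at a floor of 3 UMIs over the 202 cells, counting error left out. The gene that was higher was Cd274, which encodes PD-L1 (2082 against 620 CPM, 1.75), found in 76.2% of the 202 cells. In the mature neutrophil list, leaving out the 4 genes that chose the comparison cells, 0 of 7 genes were higher and 5 lower (median −2.60). Of the Fc receptor genes 1 of 6 was higher and 3 were lower (median −0.84), with Fcgr4 (−1.97), the adaptor Tyrobp (−1.31) and Fcgr3 (−1.02) the lower ones. Oxidase and extracellular trap genes went both ways, with 2 of 7 higher, Nos2 (2.57) and Cybb (1.31), and 2 lower, among them Rac2 (−1.05). One cell held 21.7% of the Nos2 UMIs and 1 cell 28.6% of those of Cybb.

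Immediate-early and heat shock genes were also split, with 4 of 18 higher, led by Maff (2.28), and 6 lower, led by Fos (83.7 against 807 CPM, −3.27), Ier2 (−2.54) and Fosl2 (−2.49). Of the apoptosis and survival genes 3 of 12 were higher (Bax, Bcl2l11 at 1.16 and Bcl2a1d at 1.04) and 1 lower (Xiap, −1.05), and Mcl1, the survival factor of neutrophils, had the highest level at 2089 against 2325 CPM. Interferon-stimulated genes were higher in 0 of 7 and lower in 4 (median −1.05), with both sets held to the same limit on 4 such genes. Cytosolic ribosomal protein genes were higher in 4 of 80 and lower in 0, with a median of 0.57 and 74 genes above 0. In the main cluster the median was 0.26, with 2 of 78 higher and 2 lower. Cd9, the target of the antibody, was at 2082 CPM (76.2% of cells) against 1662 CPM in Cxcr2 neutrophils (0.33) and 153 CPM in T cells. Of the 6 tetraspanin genes, Cd63 alone passed 2-fold (1012 against 468 CPM, 1.11).

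**Figure D5:**
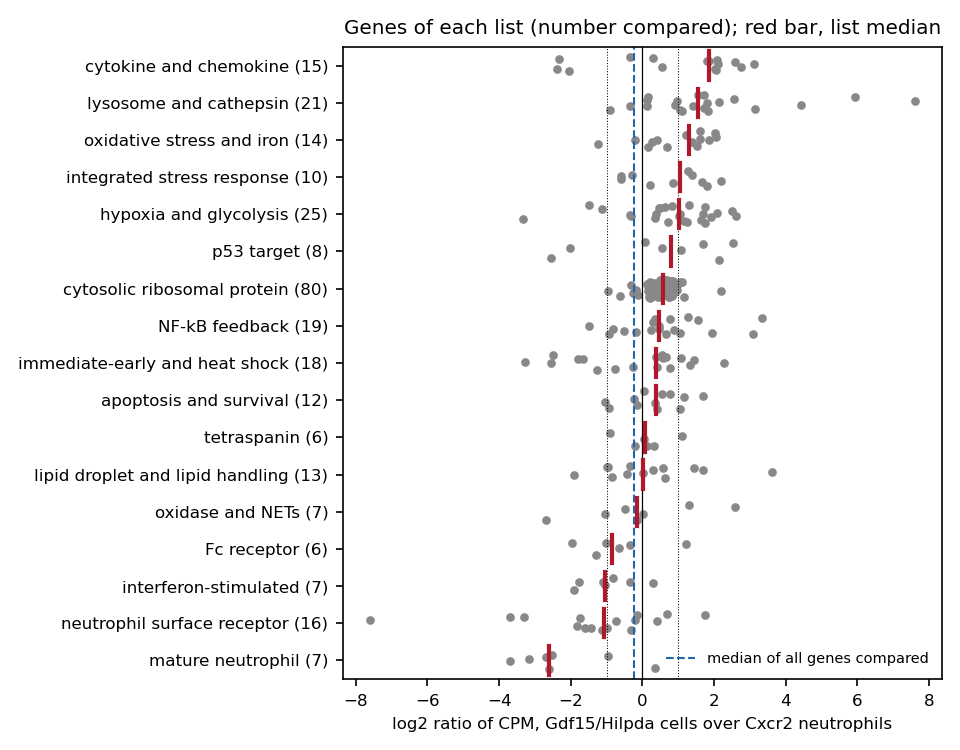
Each grey point is a gene of the named list (number of genes compared in brackets), placed by its log2 ratio of CPM in Gdf15/Hilpda cells over Cxcr2 neutrophils; red bars are list medians, the dashed line is the median of all 2755 genes (−0.25), dotted lines mark 2-fold, and a gene at 0 UMIs in either set (Atp6v0d2, Ltb4r1) is drawn at the edge. The cytokine, lysosome, oxidative stress, integrated stress response and hypoxia lists have medians above 1, and the mature neutrophil list lies lowest (−2.60).

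The same genes were set beside interferon-stimulated neutrophils, 458 anti-CD9 Ab cells with 3 or more UMIs of Rsad2, Ifit1, Ifit3 and Slfn4 and 5 or more of S100a8 and S100a9, 1 or more of Cxcr2 and Csf3r, and the same limits on C1q, the macrophage gene sum and Cd3. Over 2555 genes, 18.9% were 2-fold or more higher in the Gdf15/Hilpda cells and 24.5% lower (median 0.02). Over all 13733 genes with 1 or more UMI and 0.5 added, the balance turned, with 32.6% higher and 13.5% lower. Lysosome and cathepsin genes were higher in 15 of 21 and lower in 0 (median 1.69), hypoxia and glycolysis genes higher in 13 of 24 and lower in 3 (1.17), oxidative stress and iron genes higher in 7 of 14 and lower in 0 (0.90), and integrated stress response genes higher in 3 of 8 and lower in 0 (0.86), with a summed level of 6501 against 7818 CPM. The inflammatory lists held both higher and lower genes against interferon-stimulated neutrophils. Cytokine and chemokine genes were higher in 5 of 16 and lower in 5 (0.13), and NF-kB feedback genes higher in 2 of 21 and lower in 5 (0.06). In the main cluster the medians were −1.17 (1 of 13 genes higher and 7 lower) and −0.48 (1 of 21 higher and 6 lower). Cxcl2 was at 20975 against 15700 CPM and Ccl4 at 8110 against 10574 CPM. Gadd45b remained apart, at 7269 against 1581 CPM (2.20). Interferon-stimulated genes were lower in 12 of 12 (−2.94), with Cxcl10 at 392 against 9688 CPM. The list leaves out Rsad2, Ifit1, Ifit3 and Slfn4, which the rule limits, and the comparison cells were chosen for high values of these same genes.

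Compared with the 1484 gated macrophages of the library (3 or more UMIs of the macrophage gene sum and none of Cd3d, Cd3e and Cd3g), 11.3% of 9226 genes were 2-fold or more higher in the Gdf15/Hilpda cells and 41.4% lower (median −0.70). The balance turned over all 18322 genes with 1 or more UMI and 0.5 added, with 42.7% higher and 19.9% lower (median 0.52), in sets of unequal size (262747 against 8473590 UMIs). Mature neutrophil genes were higher in 10 of 11 and lower in 0 (median 2.81). Predicted doublets were 20.1% of the gated macrophages, and without predicted doublets in either set that median was 5.03 over 9 genes, all 9 higher. Macrophage genes were higher in 0 of 9 and lower in 8 (−4.13), with Apoe at 990 against 20260 CPM. The 2 sets were chosen for opposite values of the macrophage gene sum, so that this count is not a finding. Cytokine and chemokine genes were higher in 12 of 20 and lower in 4 (1.77), integrated stress response genes higher in 8 of 15 and lower in 3 (1.05), oxidative stress and iron genes higher in 11 of 20 and lower in 2 (1.27), and hypoxia and glycolysis genes higher in 8 of 29 and lower in 2 (0.57). Lysosome and cathepsin genes, higher than in both neutrophil sets, were split against macrophages, with 5 of 22 higher and 7 lower (−0.22). Gpnmb was at 502 against 419 CPM and Cd68 at 384 against 332 CPM, while Ctss was at 556 against 4500 CPM.

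The Gdf15/Hilpda cells were also compared by how many UMIs of the 2 rule genes they held, with genes chosen after their values were seen. In the 35 cells with 10 or more UMIs against the 58 with 3, Tnf was at 3262 against 328 CPM (3.32), Zfp36 at 1249 against 194 CPM (2.69), Gpnmb at 895 against 179 CPM (2.32) and Cxcl2 at 39348 against 11884 CPM (1.73). Of the 35 cells, 11 lay outside the main cluster, against 6 of the 58. Within the main cluster (24 and 52 cells) Tnf was at 1209 against 170 CPM, Gpnmb at 853 against 208 CPM and Cxcl2 at 25282 against 9885 CPM, with 47.1% of the Tnf UMIs of the 24 cells and 41.7% of their Gpnmb UMIs in 1 cell. Zfp36 held only 12 and 9 UMIs there, with intervals that overlap, and Il1b stood in the opposite order to Tnf, at 391 against 1231 CPM. Of the 383 genes compared between the 35 and the 58 cells, 29 were 2-fold or more higher and 20 lower. Of the Tnf UMIs of all 202 cells, 16.7% lay in 1 cell. Of the marker genes outside the rule, Gadd45b was at 9040 (8253 to 9882) against 5674 CPM (5118 to 6273), Cstb at 2982 against 3678 CPM and Mreg at 1267 against 864 CPM, with intervals that overlap for Cstb and Mreg and do not for Gadd45b. Between cells with Hilpda alone and cells with Gdf15 alone, 102 of 583 genes compared were 2-fold or more higher and 31 lower. The 115 Hilpda-only cells had Cxcl10 at 626 against 28.1 CPM (4.48), Antxr2 at 476 against 28.1 CPM (4.09) and Nos2 at 599 against 84.2 CPM (2.83) in the 24 Gdf15-only cells. Cxcl10 was found in 21 of the 202 cells, with 29.1% of its UMIs in 1 cell. Malt1, at 456 against 1403 CPM, was lower in the Hilpda-only cells. The Gdf15-only group held 35638 UMIs in all, so that its Cxcl10 and Antxr2 levels were 1 UMI each and its Nos2 level 3, and it also held the cell with most immunoglobulin, with Igkc at 42876 CPM.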

How the data were processed

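Cells were sorted as live CD45+ cells from Dounce-homogenised thalamus and profiled with 10x 3′ chemistry. The deposited values are raw UMI counts per gene and cell, made by the authors with Cell Ranger 8.0.0 and GRCm39 per the submitters' processing notes. The study's methods name an earlier version and build. Counts of the 3′ end were not scaled by gene length, so levels of a gene are compared between cells. Of 33696 gene rows, 26 repeat a symbol.

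Cells with 200 to 7500 genes and at most 5% mitochondrial UMIs were kept (95.5% with control Ab, 95.3% with anti-CD9 Ab), with median depths of 1848 and 1712 UMIs. UMIs of a set of cells were summed and given as CPM with exact Poisson intervals, and shares with exact binomial (Clopper-Pearson) intervals at 95%. Genes with 50 or more UMIs over 2 sets were compared as log2 ratios, whose script was tested on simulated counts. Ratios against 0 were set at a floor of 3 UMIs over the set, and shares of 0 at 3 cells, which are lower than the exact 95% limits. Cxcr2, Csf3r, S100a8 and S100a9 chose the neutrophil sets and were left out of counts and rankings against them. Gdf15 and Hilpda are not in the ranking against Cxcr2 neutrophils. No test was made. T cells had 3 or more UMIs of Cd3d, Cd3e and Cd3g.

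Cells were clustered at 10000 UMIs per cell on 2000 variable genes without the rule and marker genes, 30 principal components, 15 neighbours and Leiden resolution 0.8. Doublets were predicted by a simulated-doublet neighbour score at 0.8% per 1000 barcodes (9.79% and 12.1% of kept cells) and kept. The 17 lineage and 15 function lists, like the members, were chosen with earlier results of these data known. Genes named are the rule and marker genes, the 20 with the most UMIs, the 12 highest and 12 lowest ratios against Cxcr2 neutrophils (200 or more UMIs), and of each list the 3 highest, 2 lowest, most abundant and undetected genes. Others named in the text were chosen after their values were seen. Some genes, among them one of the macrophage gene sum, are not reported here. Promoters came from RefSeq. Tools were Python 3.11.15, leidenalg 0.10.2, igraph 0.11.9, scikit-learn 1.9.0, scipy 1.17.1, matplotlib 3.10.9, pandas 2.3.3 and numpy 2.4.6.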

Additional observations from a re-analysis of the deposited data

How the results depend on the processing

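No paired analysis was possible because each Ab had 1 library. A list median or single gene was counted as stable when it moved by no more than its counting half-interval (for a list, the median half-interval of its genes). The mature neutrophil level and the share of cells in 1 cluster had to stay within their counting intervals. Numbers of selected cells and shares of genes past 2-fold had to stay within a fixed fold of the main value. All-gene medians had to stay within a fixed distance. By these criteria, 383 of 425 recomputed main values and 462 of 535 values of single genes and all-gene medians were stable. The number of selected cells was set by the rule: 311 with 2 or more UMIs, 106 with 5 or more, 485 (5 with control Ab) without upper limits and 109 after thinning to 1000 UMIs. At Leiden resolution 0.4, 95.5% lay in 1 cluster. The mature neutrophil list stood at 12875 CPM with a mitochondrial limit of 2%, 12566 CPM without predicted doublets, 10445 CPM with 5 or more UMIs and 12473 CPM in the main cluster.

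List medians moved as follows. With 5 or more UMIs, against Cxcr2 neutrophils, NF-kB genes were at 0.82 and Fc receptor genes at −1.47, against interferon-stimulated neutrophils NF-kB genes at 0.42, and against macrophages oxidative stress genes at 0.88 and cytokine genes at 2.29. Without predicted doublets, integrated stress response genes were at 1.54 and mature neutrophil genes at −3.03 against Cxcr2 neutrophils, and the latter at 5.03 against macrophages. With 200 or more UMIs a gene, integrated stress response genes were at 0.53 and immediate-early genes at −0.77 against Cxcr2 neutrophils, cytokine genes at −0.22 against interferon-stimulated neutrophils, and against macrophages integrated stress response genes at 1.71 and cytokine genes at 2.17. With all genes of 1 UMI or more and 0.5 added, against Cxcr2 neutrophils 24.1% of genes were higher, with integrated stress response genes at 0.23, p53 targets at −0.15 and apoptosis genes at −0.053. The same setting gave 32.6% higher and 13.5% lower against interferon-stimulated neutrophils, and 42.7% higher and 19.9% lower against macrophages, with mature neutrophil genes at 3.22 and cytokine genes at 2.31.

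The alternatives chosen after seeing the data were main-cluster cells only, the neutrophil cluster as comparison, equal weight per cell, leaving out the cell with most immunoglobulin, scaling without ferritin and immunoglobulin genes, and the values in the report within the main cluster, within the upper limits or without the cell with most immunoglobulin. In main-cluster cells, against Cxcr2 neutrophils, NF-kB genes were at 0.12, cytokine genes at 0.78, immediate-early genes at −0.38 and ribosomal protein genes at 0.26, and against interferon-stimulated neutrophils oxidative stress genes were at 1.30, cytokine genes at −1.17 and NF-kB genes at −0.48. Against the neutrophil cluster NF-kB genes were at 0.82, and with equal weights cytokine genes were at 1.28 against macrophages. The cause of these shifts was not tested.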
